A study of Mus musculus with 4 samples.

Results

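The glycolysis and hypoxia response genes of the mouse tail disc were taken as 36 genes by their symbols, out of 32285 genes measured. They comprised 15 glycolytic enzymes, 3 genes of the pyruvate and lactate step, 4 transporters of glucose and lactate, 2 regulators of phosphofructokinase, 4 hypoxia factors and oxygen sensors and 8 hypoxia targets. Aldoa had a second entry with 3 UMIs (unique molecular identifiers, each marking 1 captured transcript), which was kept apart. UMIs were summed over the cells of each cell group in each library and given as CPM, counts scaled to a total of 1000000 UMIs in that group.

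Discs came from 12-week-old female C57BL/6 wildtype mice, with no transgene or deletion named. The injured discs, at tail levels CC5/6 to CC9/10, had been punctured from both sides with a 30G needle and were taken 7 days later. The control discs, CC12/13 to CC16/17, were unpunctured discs of the same animals, so injury and tail level cannot be told apart. Each of the 2 rounds gave 1 control and 1 injured library, called control 1, injured 1, control 2 and injured 2. The labels give 6 pooled mice and 30 discs per group and do not state whether this holds for each round. Each library was therefore a pool. In injury fits without a term for round, the p-values measure the spread between pools. In fits with round or library as a term, they measure the spread left among sums of the same pools.

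The disc is among the least vascularized tissues of the body, and its cells obtain much of their ATP by glycolysis, which splits glucose to pyruvate without using oxygen. Lactate dehydrogenase then turns pyruvate into lactate, and monocarboxylate transporters carry the lactate out of the cell. When oxygen is low, prolyl hydroxylases of the Egln family stop marking the alpha subunits of hypoxia-inducible factor (Hif1a, Epas1) for degradation. The stabilized factor binds a short core motif in the promoters of many glycolytic genes and of targets such as Bnip3 and Ndrg1, so that Hif1a activity is set largely by its protein level, which RNA counts do not show.

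Barcodes in which 250 or more genes were detected were taken as cells, 378, 856, 778 and 1834 of them in control 1, control 2, injured 1 and injured 2. Median UMIs per cell were 836 to 1061.5 in the control libraries and 4635 to 7033.5 in the injured libraries. Control 1 listed 444 barcodes, and all were also found in the injured library of round 1. Of these, 225 held few UMIs there, 115 held similar numbers and 104 held far more. Among the 378 control 1 cells, 159 carried barcodes of the last 2 sets, so these libraries shared barcodes, and values without them are given below. Within the sums, UMIs of the members ranged from 23 for Car9 to 28056 for Pkm. The filter on low counts passed 34 of the 36 genes over all cells, and Car9 and Car12, the carbonic anhydrases induced by hypoxia, passed in none of the 8 comparisons.

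Clusters of cells were made without the 36 genes and named from marker lists. The inner annulus-like class, with cartilage genes such as Acan, Sox9 and Hapln1, held 204, 239, 463 and 807 cells in control 1, control 2, injured 1 and injured 2. A cluster led by Angptl7 and Myoc carried markers of both the inner and the outer annulus and was called by those genes. It held 28, 62, 41 and 319 cells in the same order. The outer annulus-like class held 6, 7, 17 and 325 cells, which left no test of injury in it. The nucleus pulposus-like cluster held 29 and 74 control cells but 5 and 1 injured cells. Of its 10 markers 9 and 8 had a UMI, while Noto was at 0 in both control libraries and Shh in control 2, and mitochondrial genes took 19.8% and 49.4% of its UMIs. Macrophage-like cells numbered 39 and 92 in the injured libraries and 1 and 3 in the control libraries. Endothelial-like cells numbered 36 in injured 1 and fewer than 20 elsewhere, too few for a sum.

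The promoters of the members carried the core motif of the hypoxia response element more often than promoters at large. The motif was searched as ACGTG or GCGTG on either strand, where the 2 forms can overlap each other, in windows of 300 bases from 250 before to 50 after the RefSeq start (GRCm38.p6). Of the 36 members 32 had a window, and 28 of those 32 (87.5%) held at least 1 match, against 12628 of 27025 genes (46.7%) with a window. By window the shares were 80% of 45 and 43.8% of 32851. The median GC content was 61.3% in the members' windows and 52.7% in all windows, so base composition moved with the count of matches, and its part in that count was not tested. Tpi1, Gpi1, Eno2 and Car12 held no match in these windows. Bnip3l, Epas1, Ndrg1 and Slc2a3 had no window in the table.

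Windows of 4 genes are shown as examples for the genes whose levels the later results turn on, with matches in capitals and the genomic strand of each gene given. The Pkm window lies at chr9:59656977-59657276 on the plus strand, that of Pgk1 at chrX:106186850-106187149 on the plus strand, that of Slc16a3 at chr11:120948817-120949116 on the plus strand and that of Hk2 at chr6:82774405-82774704 on the minus strand.
Pkm: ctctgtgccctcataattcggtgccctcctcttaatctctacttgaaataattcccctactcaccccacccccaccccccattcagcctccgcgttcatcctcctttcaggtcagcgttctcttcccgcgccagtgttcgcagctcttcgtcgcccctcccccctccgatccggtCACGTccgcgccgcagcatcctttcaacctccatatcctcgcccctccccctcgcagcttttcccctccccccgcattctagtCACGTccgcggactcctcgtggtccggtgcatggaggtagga
Pgk1: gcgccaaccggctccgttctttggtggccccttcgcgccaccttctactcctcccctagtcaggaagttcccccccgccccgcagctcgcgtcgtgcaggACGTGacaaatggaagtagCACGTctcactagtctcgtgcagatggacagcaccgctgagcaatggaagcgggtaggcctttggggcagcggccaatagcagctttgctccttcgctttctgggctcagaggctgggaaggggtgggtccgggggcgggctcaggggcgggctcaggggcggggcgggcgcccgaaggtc
Slc16a3: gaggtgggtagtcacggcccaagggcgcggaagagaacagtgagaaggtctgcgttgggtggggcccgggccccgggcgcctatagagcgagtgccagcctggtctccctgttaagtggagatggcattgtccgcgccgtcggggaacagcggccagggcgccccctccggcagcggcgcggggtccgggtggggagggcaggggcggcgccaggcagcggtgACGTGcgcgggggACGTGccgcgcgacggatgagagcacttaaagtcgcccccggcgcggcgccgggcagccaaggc
Hk2: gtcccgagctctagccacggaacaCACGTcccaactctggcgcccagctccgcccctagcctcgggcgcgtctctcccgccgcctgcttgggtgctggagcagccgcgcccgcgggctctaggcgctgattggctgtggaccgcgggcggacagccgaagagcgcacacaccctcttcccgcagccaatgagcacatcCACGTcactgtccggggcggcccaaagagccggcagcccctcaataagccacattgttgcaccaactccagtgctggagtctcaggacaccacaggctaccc
Each of these windows held 2 matches. They began at bases 176 and 259 for Pkm, 101 and 120 for Pgk1, 224 and 237 for Slc16a3 and 25 and 199 for Hk2, counted from 1 at the 5′ end. A second Pkm window, at an upstream start, held none. In the GENCODE annotation of mm10 these genes span chr9:59656368-59679375 (Pkm), chrX:106187100-106203699 (Pgk1), chr11:120948480-120960868 (Slc16a3) and chr6:82725025-82774454 (Hk2), so each window lies at or within the gene's 5′ end. A match describes letters only, and no binding was measured here.

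The 15 glycolytic enzymes together stood highest in the inner annulus-like class in 3 of the 4 libraries. Their summed level there was 4422 and 4295 CPM in control 1 and 2 and 5578 and 4594 CPM in injured 1 and 2. The Angptl7 and Myoc cluster lay below it in each library, at 2759 and 2334 CPM in the controls and 4923 and 3350.1 CPM in the injured libraries. Its ratio to the inner class was 0.695 ± 0.147 (SD, n = 4). Macrophage-like cells of the injured libraries gave 4248 and 3141 CPM, 0.723 ± 0.0550 of the inner class (SD, n = 2). The outer annulus-like class, measured in injured 2 only, gave 3726 CPM. Endothelial-like cells of injured 1 gave 2141 CPM, the lowest of the named groups.

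The nucleus pulposus-like cluster changed place with the denominator. Its enzymes summed to 4471 CPM in control 1, next to the inner class, and to 2726 CPM in control 2, well under it, a ratio of 0.823 ± 0.266 (SD, n = 2). When mitochondrial UMIs were left out of the total, the ratio was 1.19 ± 0.0521, above the inner class in both libraries. Summed in barcodes under the cell minimum, which hold mostly free RNA, the enzymes gave 2405, 1042 and 1215 CPM in injured 1, control 2 and injured 2. Control 1 listed no such barcodes. In those 3 libraries all named groups except the endothelial-like cells lay above the free RNA of their own library.

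**Figure D1:**
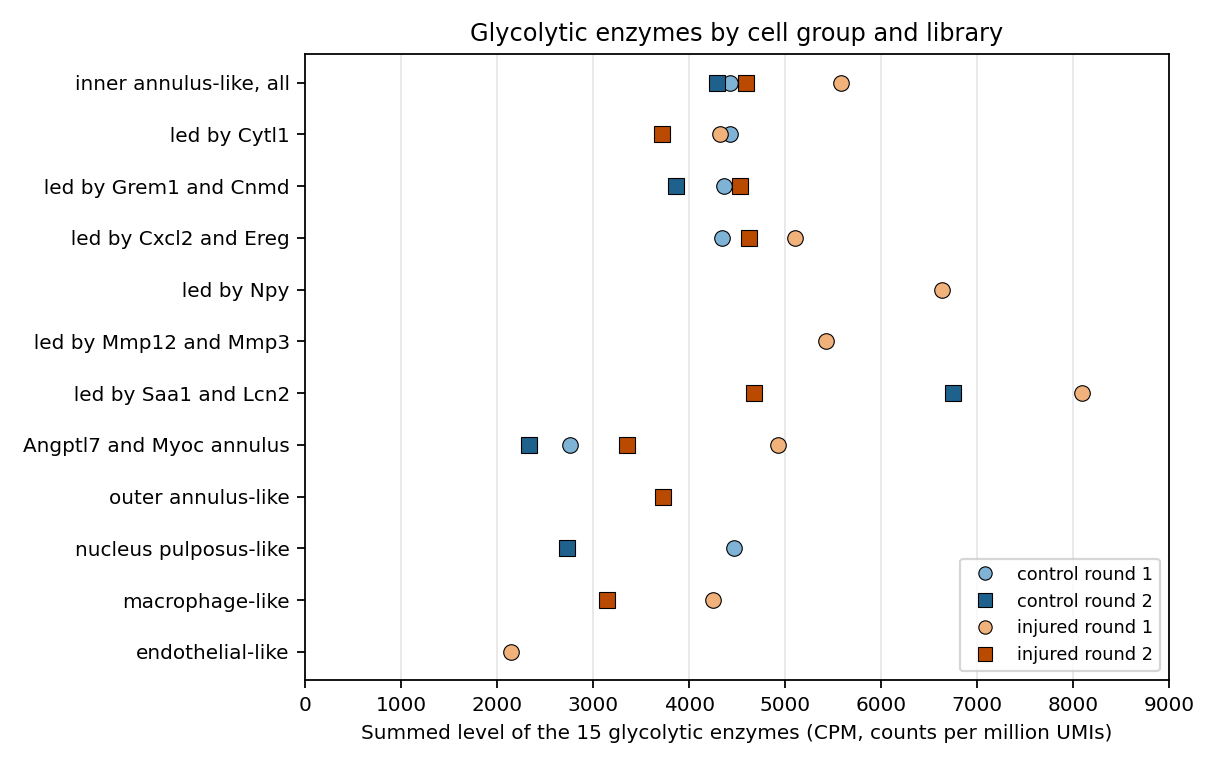
Summed level of the 15 glycolytic enzymes (CPM, x axis) in the named cell groups and the inner clusters (y axis), 1 point per library with at least 20 cells. The inner annulus-like class lies between 4295 and 5578 CPM, and endothelial-like cells are lowest at 2141 CPM.

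Enzymes differed in how they were spread over the groups. Pkm, which makes pyruvate in the last step, had the most UMIs of the members over all cells (28056), with 1029 and 1143 CPM in control 1 and 2 and 1443 and 1631 CPM in injured 1 and 2 in the inner class. Gapdh was above Pkm in both round 1 libraries over all cells, at 967 and 1551 against 869 and 1367 CPM. The Pkm level in the outer annulus-like class of injured 2 was 1461 CPM, and in endothelial-like cells 383 CPM (95% Poisson interval 296 to 487). Hk2, the hexokinase that traps glucose in the cell, was more selective. In injured 2 it stood at 339 CPM in the inner class, 161 in macrophage-like cells, 148 in the Angptl7 and Myoc cluster and 52.1 in the outer class. UMI counts of 3′ ends need no correction for transcript length, though capture and mapping can differ between genes.

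Isozyme use also differed between groups. Hk2 made up 87.7%, 88.6%, 84.4% and 82.5% of hexokinase UMIs (Hk1 plus Hk2) in the inner class of control 1, control 2, injured 1 and injured 2. In the outer class of injured 2 it made up 61.7% (145 of 235 UMIs, 95% Clopper-Pearson interval 55.2 to 67.9), and in endothelial-like cells 2 of 14 UMIs. Pfkp, the platelet-type phosphofructokinase, made up 85.0% to 92.7% of its family in the inner class and 56.0% (49.5 to 62.4) in the outer class of injured 2. Lactate dehydrogenase was almost wholly Ldha, at 94.8% to 98.8% of the family in the inner class and 99.5% in the outer class. Hif1a made up 93.8% to 97.4% of the UMIs of Hif1a plus Epas1 in the inner class and 69.6% (61.1 to 77.2) in endothelial-like cells, where Epas1, the paralog known from endothelium, reached 238 CPM. These intervals cover counting error only.

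Against the inner class of the same libraries, the nucleus pulposus-like cluster was lower in Hk2 and Pfkp, which act at the entry of glycolysis, and higher in Gapdh, which acts midway. Of 27 members tested with edgeR's quasi-likelihood test, 2 rose (Gapdh and Bnip3l) and 3 fell (Hk2, Pfkp and Hif1a) at an adjusted p under 0.05. Among all genes 7.48% were called, 2.91% higher and 4.57% lower. The members' median log2 difference was 0.46 and that of all genes −0.38. Hk2 stood at 63.9 and 17.9 CPM (4 and 2 UMIs) in control 1 and 2, against 750.4 and 369 CPM in the inner class, a log2 difference of −3.30 (SE 0.57, adjusted p = 9.43e-05). Pfkp rested on 1 and 2 UMIs, a log2 difference of −2.87 (SE 0.64, adjusted p = 0.0025). In control 2 the Hk2 level was under the 20.6 CPM of Hk2 in free RNA of that library, so it is no more than background there.

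Gapdh, the enzyme of the central oxidation step, moved the other way, with 1932 and 959 CPM in the nucleus pulposus-like cluster against 989 and 543 CPM in the inner class. The cluster was higher in both libraries. The log2 difference fitted after TMM scaling (trimmed mean of M values, which sets the sums on a common scale), on which the median of all genes was −0.38, was 1.66 (SE 0.38, adjusted p = 0.00357), larger than these CPM values give by themselves. Bnip3l, a hypoxia target that drives mitochondrial clearance, was higher by 1.51 (SE 0.34, adjusted p = 0.00301) with 351 and 206 CPM. Hif1a itself was lower, at 79.8 and 62.8 against 631 and 303 CPM, a log2 difference of −2.00 (SE 0.50, adjusted p = 0.00762). Slc2a1, the main glucose transporter, differed between the pools, at 367 CPM in control 1 (23 UMIs) and 26.9 in control 2 (3 UMIs), and Ndrg1 did so too at 687 and 44.8 CPM. The mitochondrial share moved with this contrast. Refitted without mitochondrial genes, the same 5 members passed (Hk2 −3.33, Pfkp −2.91, Hif1a −2.03, Gapdh 1.61 and Bnip3l 1.48).

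The nucleus pulposus-like cluster had sums in the 2 controls, so leaving out either leaves 1 library, which the fit assumes to vary like the sums of the other cell groups. Without control 1, Hk2 (−2.91) and Hif1a (−0.98) no longer passed and Slc2a1 reversed to −0.36, while without control 2 Gapdh (0.75) and Bnip3l (1.11) no longer passed. With another scaling (RLE in place of TMM) the median of all genes moved from −0.38 to −0.22, the split of calls over all genes from 203 higher and 318 lower to 230 and 234, and Aldoa, the aldolase of glycolysis (1.21), and Pfkfb3 also passed.

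Of the 27 members tested in macrophage-like cells against the inner class, 7 fell, namely Pgk1, Hk2, Pfkp, Slc2a1, Hif1a, Epas1 and Bnip3, and Gpi1 rose. That is 29.6% of the members, where 34.6% of all genes were called, and other settings turned this order round. The count was 14 of 29 without control 1 (36.6% of all genes called), 15 of 30 at 500 genes per cell (35.3%) and 14 of 36 without the filter on low counts (14.8%), with Slc16a1, Tpi1, Ldha, Egln1, Pkm and Egln3 added as lower in each, but 3 of 30 without injured 2 (16.6%) and 4 of 31 without injured 1 (20.6%). Of the 27 values, 23 were negative, and 19 under RLE scaling. By direction, 16.2% of all genes were higher and 18.4% lower. The median was −0.76 for the members and −0.09 for all genes. Pgk1, which makes the first ATP of the pathway, stood at 139 and 138 CPM in injured 1 and 2 against 398 and 399 in the inner class. The groups lay far apart, and the log2 difference was −1.68 (SE 0.35, adjusted p = 0.000203). Bnip3, a mitophagy gene and hypoxia target, stood at 66.8 and 65.8 CPM against 194 and 212, a difference of −1.62 (SE 0.36, adjusted p = 0.000417).

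In macrophage-like cells Hk2 was −1.33 and Hif1a −1.29 on the log2 scale, Slc2a1 −1.11 and Pfkp −0.81, with adjusted p-values of 0.00307, 0.00365, 0.0238 and 0.0362. Gpi1, which turns glucose 6-phosphate into fructose 6-phosphate, was higher by 0.99 (SE 0.30, adjusted p = 0.0085), with 139 and 247 CPM against 81.1 and 109. In injured 1 the macrophage-like value of Gpi1 lay under the 238 CPM of Gpi1 in free RNA of that library. Epas1 was called (adjusted p = 0.0249) from 0 UMIs in injured 1, which allows up to 16.7 CPM, and 1 UMI in injured 2. Macrophage-like cells had sums in the 2 injured libraries, so leaving out either again leaves 1 library, taken to vary like the other cell groups. Hk2 (−1.18), Pfkp (−0.98), Slc2a1 (−1.25) and Epas1 did not pass without injured 1, nor Gpi1 (0.53), Pfkp (−0.74), Slc2a1 (−1.15), Hif1a (−1.25) and Epas1 without injured 2. Under RLE scaling the median of all genes was 0.03 in place of −0.09 and Pfkp did not pass. Slc16a3, the lactate exporter induced in glycolytic cells, stood at 39.0 and 88.8 CPM against 38.5 and 61.7, a difference of 0.27 (SE 0.38, adjusted p = 0.633).

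The Angptl7 and Myoc cluster, compared with the inner class over all 4 libraries, lay lower in all 12 glycolytic enzymes tested, of which Hk2, Pfkp and Pgk1 passed the test. Over the 27 members tested, 4 fell (those and Slc2a1) and Ddit4 rose, where 13.7% of all genes were called (7.36% higher, 6.35% lower). The median was −0.33 for the members and −0.01 for all genes. Slc2a1 showed 32.6 and 39.1 CPM in control 1 and 2 and 45.4 and 42.9 CPM in injured 1 and 2 in the cluster and 177 and 80.7 CPM in control 1 and 2 and 89.9 and 104 CPM in injured 1 and 2 in the inner class. It was lower in each of the 4 libraries, with a log2 difference of −1.12 (SE 0.24, adjusted p = 0.00121). The log2 difference was −0.90 (SE 0.24, adjusted p = 0.00843) for Hk2, −0.82 (SE 0.21, adjusted p = 0.00615) for Pfkp and −0.69 (SE 0.24, adjusted p = 0.0495) for Pgk1. Ddit4, a stress-induced inhibitor of the growth kinase mTOR, was higher by 0.97 (SE 0.31, adjusted p = 0.0302). The immediate early list, genes such as Fos and Jun that rise during cell dissociation, moved with Ddit4 in this contrast, with 4 of its 10 genes higher, and its part in the Ddit4 value was not tested.

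Each of these 5 calls needed the library as a term, since none passed without it (Hk2 −0.94, Pfkp −0.79, Slc2a1 −1.26, Pgk1 −0.62, Ddit4 1.02), and 2.8% of all genes passed there. Slc2a1 alone kept its call when each library was left out in turn. Hk2 (−0.91), Pfkp (−0.87) and Pgk1 (−0.76) did not pass without injured 2, nor Pfkp (−0.82), Pgk1 (−0.86) and Ddit4 (0.71) without injured 1, Ddit4 (0.73) without control 1 and Pgk1 (−0.49) without control 2. Pgk1 also did not pass under RLE scaling (−0.65) or without the shared round 1 barcodes (−0.69, adjusted p = 0.0515).

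**Figure D2:**
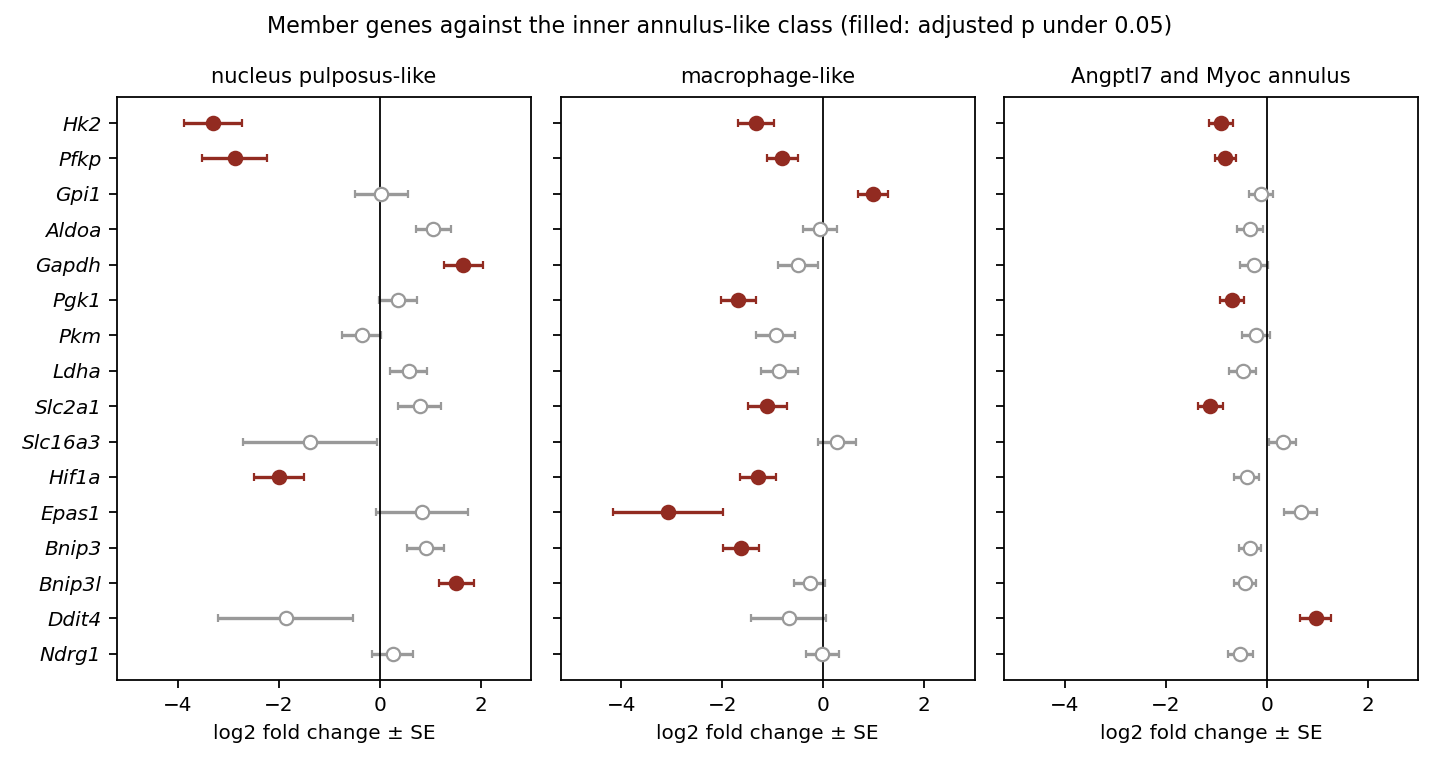
Log2 difference from the inner annulus-like class (x axis, ± SE) for 16 members (y axis) in 3 cell groups; filled points passed an adjusted p of 0.05. Hk2 lies below 0 in each group, at −3.30, −1.33 and −0.90, while Gapdh passed in the nucleus pulposus-like cluster only (the difference between the contrasts was not tested).

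Within the inner class, clusters carried different parts of the pathway. The cluster led by Saa1 and Lcn2, acute-phase genes, had the highest sum of enzymes, at 6748, 8096 and 4681 CPM in control 2, injured 1 and injured 2, with 20, 26 and 501 cells. Its Pkm was 2152, 1714 and 1649.7 CPM and its Eno1, the enolase of the pathway, 633, 660.5 and 313 CPM. The cluster led by Cytl1 held the opposite pattern at the entry of the pathway. There Hk2 was 867, 624 and 847 CPM in control 1, injured 1 and injured 2, against 163 and 231 in injured 1 and injured 2 of the Saa1 cluster, while its Pkm was 960.3, 929 and 1126 CPM. In injured 1 and injured 2, where both clusters were measured, Hk2 was higher in the Cytl1 cluster and Pkm in the Saa1 cluster.

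The cluster led by Grem1 and Cnmd stood out for 2 hypoxia targets. Its Ankrd37, an ankyrin-repeat gene induced by hypoxia, was 176, 54.9 and 97.8 CPM in control 1, control 2 and injured 2, above the 0 to 38 CPM of the other inner clusters. Its Ddit4 was 135, 45.2 and 55.0 CPM. The Cxcl2 and Ereg cluster, with inflammatory genes on top, had Pkm at 1579, 1481 and 1764 CPM. These are levels of clusters made from the same cells, given without a test.

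**Figure D3:**
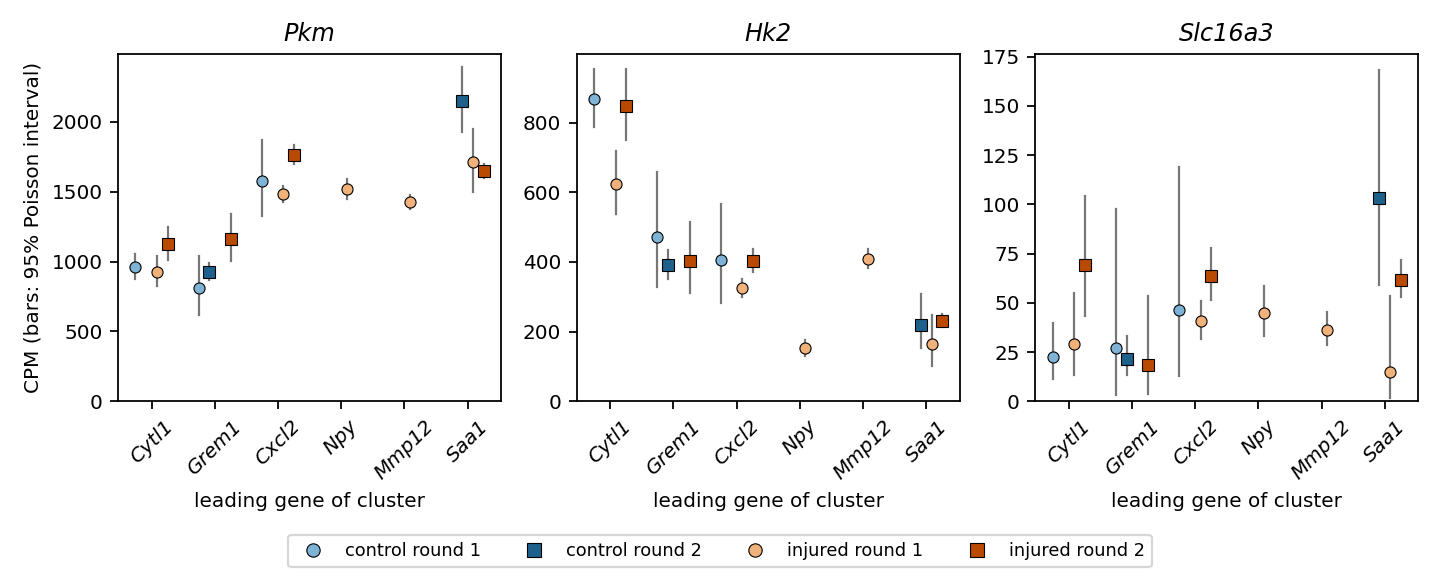
Levels of Pkm, Hk2 and Slc16a3 (CPM, y axis, with 95% Poisson bars for counting error) in the 6 clusters of the inner annulus-like class (x axis), 1 point per library with at least 20 cells. Hk2 is highest in the Cytl1 cluster, at 624 to 867 CPM, where Pkm lies at 929 to 1126 CPM.

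Whether injury shifted the program was asked in 4 cell sets. In the design without a round term, edgeR with its filter on low counts called no member in any of them. The counts were 0 of 34 over all cells, 0 of 34 over the disc cells together, 0 of 31 in the inner class and 0 of 24 in the Angptl7 and Myoc cluster. All genes were called at 0.117%, 0.0178%, 0% and 0.504% in the same order. Without that filter 2 of 36 members, Pkm and Slc16a3, were called in the Angptl7 and Myoc cluster, against 0.845% of all genes, and 0 in the other sets. At an unadjusted p under 0.05 there were 3, 2, 1 and 5 members, and DESeq2 called 0 members over all cells, over the disc cells and in the inner class and 1, Pkm, in the Angptl7 and Myoc cluster. Because control and injured discs came from the same animals, round was also fitted as a block. With the block 1 member was called over all cells (Slc16a3), 0 in the disc cells, 2 in the inner class (Slc16a3 and Ankrd37) and 4 in the Angptl7 and Myoc cluster (Pkm, Slc16a3, Eno1 and Pgk1). The background with the block was 6.14%, 3.81%, 8.42% and 8.26% of all genes. By direction, 2.73% of all genes over all cells, 4.33% in the inner class and 4.68% in the Angptl7 and Myoc cluster were higher, and 4.08% in the inner class were lower.

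The Angptl7 and Myoc cluster held the largest injury differences among the enzymes. Pkm was 554 and 726 CPM in control 1 and 2 and 1492 and 1505 CPM in injured 1 and 2. Both injured values were above both control values, 2.69 times as high in round 1 and 2.07 times in round 2. The log2 fold change was 1.29 (SE 0.34, adjusted p = 0.173) without the block and 1.29 (SE 0.33, adjusted p = 0.00368) with it. Pgk1 was 150.0 and 126 CPM in control 1 and 2 and 288 and 234 CPM in injured 1 and 2, again without overlap, and its change was 0.99 (SE 0.34, adjusted p = 0.294) without and 0.99 (SE 0.31, adjusted p = 0.0224) with the block. Without any injury effect, 2 of 4 libraries lie wholly above or below the other 2 with a probability of 0.3333. The share of all genes separated in this way is not given. In this cluster Slc16a1, Slc2a1, Ldha, Tpi1 and Car12 were also higher in both injured libraries than in both controls. Ddit4, Ndrg1, Ankrd37, Ldhb, Eno2 and Pfkfb4 were lower in both.

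Eno1 was 84.8 and 159 CPM in control 1 and 2 and 315 and 208 CPM in injured 1 and 2 in that cluster, also without overlap. Its rounds were unequal, with injured over control at 3.71 in round 1 and 1.31 in round 2, and the log2 change was 1.07 (SE 0.38, adjusted p = 0.304) without and 1.03 (SE 0.31, adjusted p = 0.017) with the block. It was 1.67 without control 2 and 0.81 without control 1. In the round 1 barcodes found in both matrices, Eno1 in the control matrix was 0.253 of its injured level (given with the comparison of the matrices), a gap in the direction of the round 1 ratio, and its part here was not tested. Pgam1, the mutase upstream of enolase, was 137 and 104 CPM in control 1 and 2 and 240.3 and 177 CPM in injured 1 and 2. Its ratios of 1.75 and 1.70 were close, and the change of 0.86 with the block had an adjusted p of 0.0521. Of the 11 enzymes tested there, 9 had a positive and 2 a negative value without the block, with a median of 0.62 against −0.03 for all genes. Hk2 did not separate the groups, at 300.1 and 126 CPM in control 1 and 2 and 267 and 148 CPM in injured 1 and 2.

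The lactate exporter Slc16a3 had the largest fold of the 24 members tested there. It was 6.52 and 26.1 CPM in control 1 and 2 and 58.7 and 72.6 CPM in injured 1 and 2 in the Angptl7 and Myoc cluster, from 1, 12, 22 and 169 UMIs, and the control 1 value has a 95% Poisson interval of 0.165 to 36.3 CPM. The groups did not overlap, and the log2 change was 1.82 (SE 0.51, adjusted p = 0.202) without and 1.89 (SE 0.49, adjusted p = 0.00419) with the block. Without the block no member passed over the 4 libraries in edgeR with the filter on low counts. Without that filter Pkm and Slc16a3 passed, and DESeq2 called Pkm. When injured 1 was left out, Pkm was 1.44 and Slc16a3 2.06, where injured 2 is the lone injured library and the 2 controls give the spread. Slc16a3 was 3.44 without control 2 and 1.50 without control 1. Slc16a1, the more widespread lactate transporter, was 32.6 and 30.4 CPM in control 1 and 2 and 61.4 and 38.2 CPM in injured 1 and 2, and its change of 0.61 (SE 0.45, adjusted p = 0.461) with the block did not pass.

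The outer annulus list moved with these values. Its 16 markers summed to 37644 and 38020 CPM in the controls and 53914 and 47246 CPM in the injured libraries of the Angptl7 and Myoc cluster, with 14, 15, 15 and 16 markers detected and Postn at 0 in 3 of the libraries. The part of that shift in the enzyme values was not tested. With clusters made from all genes, members included, Myoc and Angptl7 led a cluster of 27, 49, 17 and 78 cells in control 1, control 2, injured 1 and injured 2, while Fmod and Comp were among the leading genes of another, with 16, 17, 60 and 279 cells. Neither had 20 cells in every library, so injury was not compared within them and the part of this makeup in the Pkm and Slc16a3 changes was not tested. Macrophage markers were near 0 in the cluster, at 0 to 13.3 CPM over 12 markers. No barcode shared between the round 1 libraries entered its ratios, which were identical without them.

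In the inner class the same genes had smaller differences. Pkm was 1029 and 1143 CPM in control 1 and 2 and 1443 and 1631 CPM in injured 1 and 2, 1.40 and 1.43 times as high after injury in the 2 rounds, with a log2 change of 0.62 (SE 0.39, adjusted p = 0.749) and, with the block, 0.62 (SE 0.37, adjusted p = 0.34). Neither passed. Slc16a3 was 25.7 and 30.0 CPM in control 1 and 2 and 38.5 and 61.7 CPM in injured 1 and 2, and its change was 0.97 (SE 0.42, adjusted p = 0.612) without and 0.97 (SE 0.33, adjusted p = 0.04) with the block. Without the block it was 0.53 when injured 2 was left out and 1.34 when injured 1 was left out. Without the shared barcodes the round 1 ratio of Pkm was 1.54 and that of Slc16a3 1.62, against 1.40 and 1.50 with them. The difference in the Pkm change between this class and the Angptl7 and Myoc cluster, tested as an interaction with library as a term, was 0.77 (SE 0.30, adjusted p = 0.872) and did not pass. No member of 31 passed there, where 0.126% of all genes did and 1 member had an unadjusted p under 0.05.

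Cluster makeup moved with the inner class values. Control 2 was mostly the Grem1 and Cnmd cluster (203 of 239 cells), injured 1 mostly the clusters led by Cxcl2, Mmp12 and Npy (152, 141 and 105 of 463), and injured 2 mostly the Saa1 cluster (501 of 807). Within the Cytl1 cluster Pkm was 960.3 in control 1 and 929 CPM in injured 1, and within the Cxcl2 cluster 1579 and 1481. Of the 85 control 1 cells of the Cxcl2 cluster, 80 carried barcodes shared with injured 1, so these are not independent libraries there. In round 2 Pkm was 927 in control and 1162 CPM in injured cells of the Grem1 cluster, but 2152 and 1649.7 in the Saa1 cluster. Slc16a3 had 20 or fewer UMIs on at least 1 side of each remaining pair, with 22.3 and 28.9 CPM in the Cytl1 cluster (11 and 9 UMIs), 21.5 and 18.3 in the Grem1 cluster (20 and 3 UMIs) and 103 and 61.7 in the Saa1 cluster (16 and 168 UMIs). Each pair is 1 library against 1 and has no replicate check. The outer annulus list also moved in the inner class, from 7047 and 2950 CPM in the controls to 17532 and 10716 in the injured libraries (14, 15, 16 and 16 of 16 markers), and its part was not tested.

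**Figure D4:**
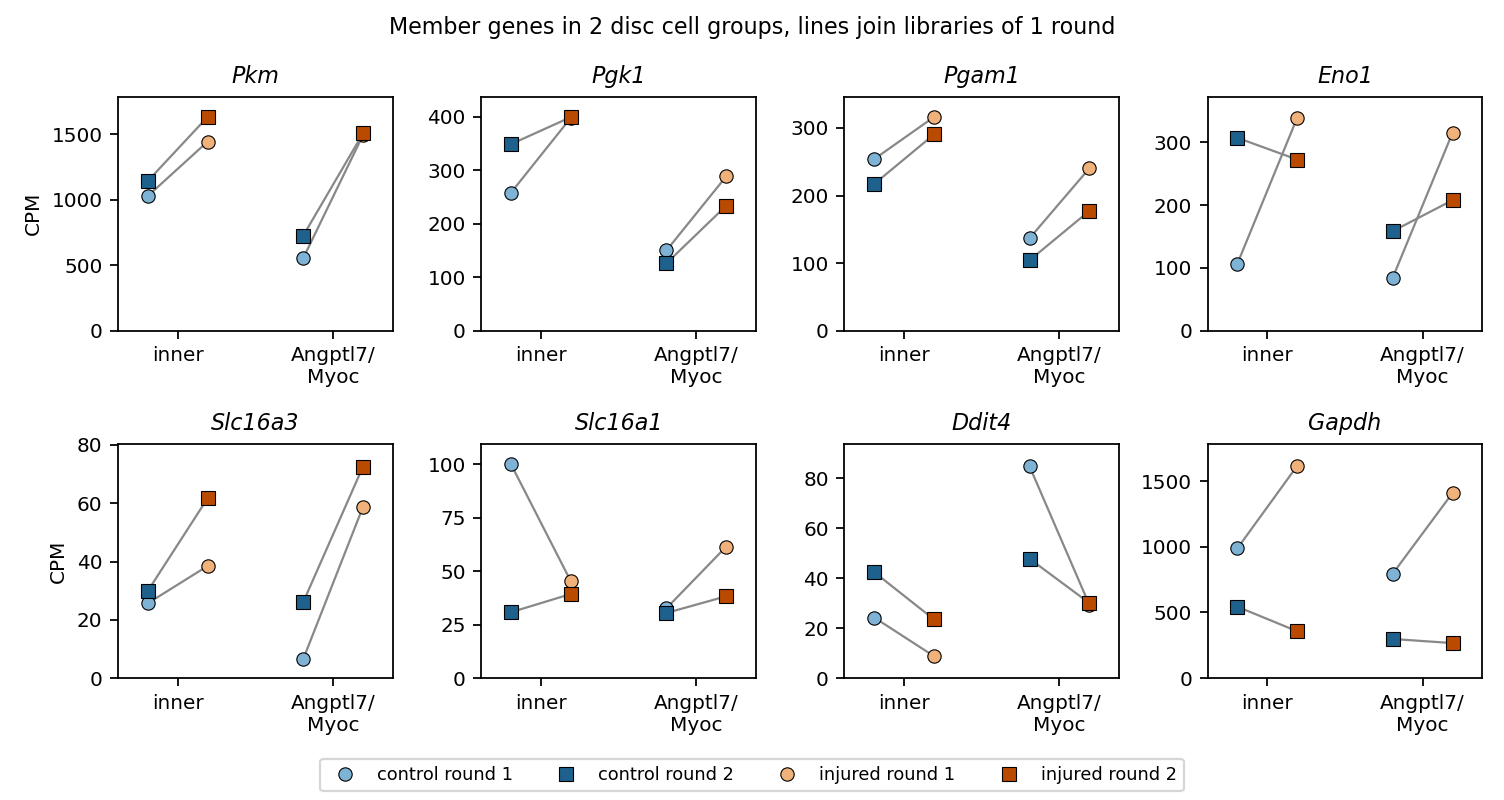
Levels of 8 members (CPM, y axis) in control and injured libraries (x axis) of the inner annulus-like class and the Angptl7 and Myoc cluster, with lines joining libraries of the same round. Pkm, Pgk1, Pgam1, Eno1, Slc16a3 and Slc16a1 are higher in both injured libraries than in both controls of the Angptl7 and Myoc cluster. Ddit4 is lower in both there, and Gapdh is higher in round 1 than in round 2 throughout.

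Hypoxia targets showed no shared rise after injury. The 8 targets summed to 623 and 770.5 CPM in the control and 743 and 698 CPM in the injured inner class, and to 619.7 and 530.2 against 547 and 400.2 CPM in the Angptl7 and Myoc cluster. In that cluster the injured sum was lower in each round, with injured 1 above control 2, while in the inner class it was higher in round 1 and lower in round 2. Ankrd37 was 25.7 and 46.6 CPM in control 1 and 2 and 3.28 and 32.4 CPM in injured 1 and 2 in the inner class. It was lower in the injured library of each round, but injured 2 lay within the control range, and the log2 change was −0.89 (SE 0.87, adjusted p = 0.846) without and −1.19 (SE 0.36, adjusted p = 0.0166) with the block. Without injured 2 the value was −3.39, and without injured 1 it was 0.03. Ankrd37 was highest in the Grem1 cluster, which held 203 of the 239 control 2 cells and 3 of the 463 injured 1 cells, and the part of that makeup was not tested.

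Ddit4 was 24.3 and 42.4 CPM in control 1 and 2 and 8.75 and 23.5 CPM in injured 1 and 2 in the inner class and 84.8 and 47.8 CPM in control 1 and 2 and 29.4 and 30.1 CPM in injured 1 and 2 in the Angptl7 and Myoc cluster. Injured values were below both controls in both groups of cells, and the log2 changes of −0.96 and −0.87 with the block did not pass (adjusted p = 0.0652 and 0.187). Without the block and 1 library, the change ran from −1.87 (without injured 2) to −0.32 (without injured 1) in the inner class and from −1.39 (without control 2) to −0.53 (without control 1) in the cluster. Immediate early genes moved with it. Their 10 genes summed to 11807 and 10589 CPM in the control and 6934 and 6123 CPM in the injured Angptl7 and Myoc cluster, and to 3445 and 12126 against 2216 and 4613 CPM in the inner class. Their part in the Ddit4 values was not tested. Pfkfb3, whose product raises phosphofructokinase activity, was 38.5 and 29.2 CPM in control 1 and 2 and 13.4 and 17.9 CPM in injured 1 and 2 over all cells, with both injured libraries lower, and its change was −1.03 (SE 0.39, adjusted p = 0.56) without and −1.01 (SE 0.30, adjusted p = 0.0647) with the block. Adm, the vasodilator peptide adrenomedullin, was 12.2 and 21.3 CPM in control 1 and 2 and 7.73 and 5.59 CPM in injured 1 and 2, a change of −1.30 with an adjusted p of 0.53.

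No hypoxia factor, oxygen sensor or glucose transporter passed the test for injury in the inner class, without or with the block. There Hif1a was 631 and 303 CPM in control 1 and 2 and 599 and 323 CPM in injured 1 and 2. The round 1 libraries were high and the round 2 libraries low in both groups, with injured over control at 0.949 and 1.07. Egln1, the principal oxygen-sensing hydroxylase, was 71.3 and 99.0 CPM in control 1 and 2 and 90.4 and 108 CPM in injured 1 and 2, with injured over control at 1.27 and 1.09. Slc2a1 was 177 and 80.7 CPM in control 1 and 2 and 89.9 and 104 CPM in injured 1 and 2, lower after injury in round 1 (0.508) and higher in round 2 (1.28). Hk2 was 750.4 and 369 CPM in control 1 and 2 and 333 and 339 CPM in injured 1 and 2, with both injured values below both controls (0.444 and 0.917 of control in the 2 rounds), and its log2 change of −0.63 did not pass (adjusted p = 0.781). Ldha, which makes lactate, overlapped between the groups at 722 and 791 CPM in control 1 and 2 and 610.5 and 795 CPM in injured 1 and 2. Ndrg1, a stress and differentiation gene, overlapped at 318 and 248 CPM in control 1 and 2 and 363 and 284 CPM in injured 1 and 2 and was higher in the injured library of each round, and Pdk1, which blocks entry of pyruvate into mitochondria, at 14.3 and 53.2 CPM in control 1 and 2 and 12.2 and 20.8 CPM in injured 1 and 2 and was lower in each round. None of these passed. Of all genes tested in the inner class, 0% were called without and 8.42% with the block.

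Gapdh, often used to normalize other genes, was higher in round 1 than in round 2 in both groups. Over all cells it was 967 and 463 CPM in control 1 and 2 and 1551 and 317 CPM in injured 1 and 2. Round 1 was 2.09 times round 2 in control and 4.90 times in injured cells, and only 225 of 8016 genes (2.81%) had a ratio of 2.09 or more in both groups. The ratios were 1.82 and 4.54 in the inner class and 2.67 and 5.30 in the Angptl7 and Myoc cluster. Its injury change over all cells, 0.41, reversed to −1.07 without injured 1 and to −0.01 without control 2.

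Barcodes listed in both round 1 matrices gave a direct look at how the 2 matrices counted members. For the 104 barcodes with far more UMIs in injured 1, the control matrix held 77511 and the injured matrix 2614762 UMIs. Scaled to these totals, Eno1 in the control matrix was 0.253 of its level in the injured matrix (95% interval 0.0926 to 0.553, 6 against 800 UMIs). Gapdh was 0.543 (0.419 to 0.694), Hk2 0.582 (0.324 to 0.965) and Pkm 1.36 (1.15 to 1.61). The other 10 of 14 members with enough UMIs had intervals that included 1. The 104 barcodes are the same in both matrices, so the round 1 ratio of Eno1, 3.17 in the inner class against 0.888 in round 2, lies beside a difference of the same direction between the matrices themselves. Eno1b, a near-identical copy of Eno1, had 0 and 30 UMIs in these barcodes, where 0.89 would be expected in the control matrix. Whether counting split reads of Eno1, Gapdh and other enzymes with close copies was not tested. Of 1212 genes compared this way 303 (25%) were beyond 1.5-fold, with a median ratio of 0.979.

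**Figure D5:**
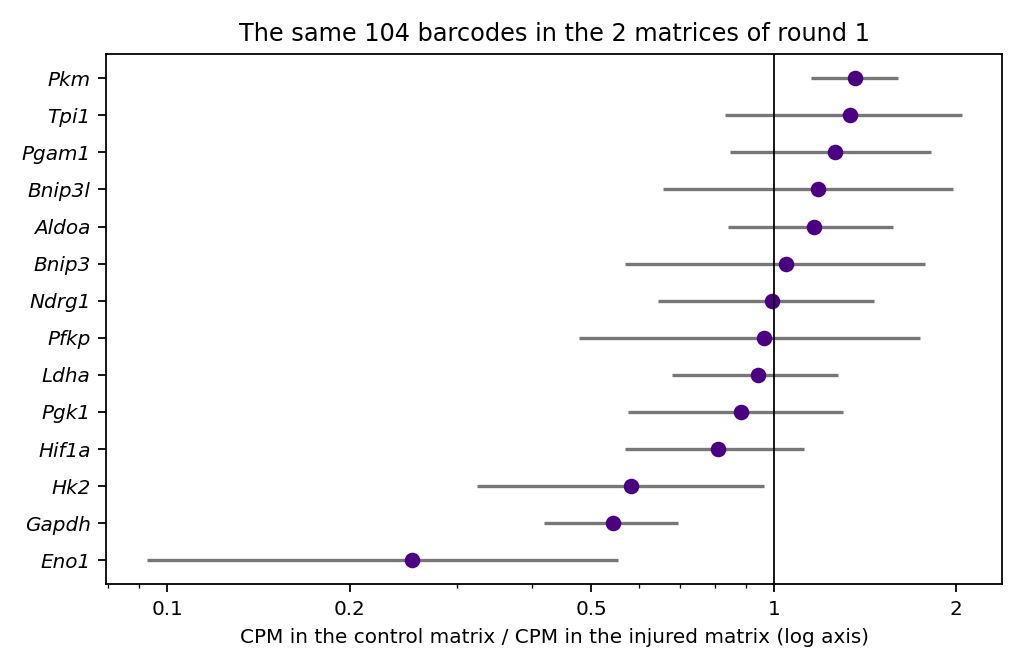
Level in the control 1 matrix over the injured 1 matrix (x axis, log scale, 95% intervals for counting error) for 14 members (y axis) in the 104 barcodes that both matrices list with far more UMIs in injured 1. Eno1, Gapdh and Hk2 lie below 1 and Pkm above it, and the other 10 intervals include 1.

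Genes next to the pathway were read in 6 further lists. In the design without the block none was called for injury, apart from Selenbp1, a selenium-binding gene of the wider hypoxia list, which fell in the Angptl7 and Myoc cluster (log2 change −2.83, SE 0.52, adjusted p = 0.0483). With the block, oxidative phosphorylation, the oxygen-using source of ATP, had 13 of 49 genes higher and 0 lower in the inner class, where 4.33% of all genes were higher and 4.08% lower (Ndufb7 1.03, SE 0.29, adjusted p = 0.00875 and Cox7b 0.98, SE 0.29, adjusted p = 0.0132), with a median log2 change of 0.70 against −0.04 for all genes. In the Angptl7 and Myoc cluster 8 of 49 were higher, against 4.68% of all genes (Cox5a 1.13, SE 0.31, adjusted p = 0.00836 and Uqcrq 1.13, SE 0.32, adjusted p = 0.0097), with a median of 0.55 against −0.03 for all genes. All 49 summed to 9922 and 11769 CPM in the control and 13520 and 17338 CPM in the injured Angptl7 and Myoc cluster, with both injured libraries above both controls. Over all cells 3 of the 49 were higher with the block, against 2.73% of all genes, and over disc cells 0 were called, against 3.81%.

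The wider hypoxia list had 2 of 32 tested genes higher and 3 lower in the inner class with the block, where 4.33% of all genes were higher and 4.08% lower, led by Selenbp1 (−2.77, SE 0.51, adjusted p = 6.43e-06) and Plod1, a collagen hydroxylase (1.07, SE 0.30, adjusted p = 0.00882). In the Angptl7 and Myoc cluster 4 of 20 were higher and 3 lower, where 8.26% of all genes were called, among them Mif, a cytokine (1.67, SE 0.32, adjusted p = 2.05e-05). Immediate early genes had 5 of 10 lower in the inner class (Egr1 −1.61, SE 0.35, adjusted p = 0.00018 and Fosb −1.35, SE 0.31, adjusted p = 0.00051) and 4 of 10 in the Angptl7 and Myoc cluster (Fos −1.49, SE 0.35, adjusted p = 0.00108 and Jun −1.06, SE 0.32, adjusted p = 0.0161). In the inner class 1 gene each was higher of the citric acid cycle list (Sdhc 1.03, SE 0.35, adjusted p = 0.0415) and of the other glycolysis and pyruvate list (Mpc1, a subunit of the mitochondrial pyruvate carrier, 1.05, SE 0.29, adjusted p = 0.00675). Of the pentose phosphate list 0 were called by edgeR in either group of cells.

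Between cell groups, the same lists are given beside the share of all genes called. In macrophage-like cells 34.6% of all genes were called, 16.2% higher and 18.4% lower than in the inner class. In the pentose phosphate list, which supplies NADPH, 3 of 5 tested genes were higher, led by Tkt (log2 difference 1.36, SE 0.28, adjusted p = 0.000173) and Pgd (0.93, SE 0.28, adjusted p = 0.00859). Of 15 citric acid cycle genes 2 were higher, a smaller share than over all genes (Sdhb 0.95, SE 0.32, adjusted p = 0.0195 and Ogdh 0.88, SE 0.32, adjusted p = 0.0322). Of the wider hypoxia list 2 of 26 were higher and 14 lower, with Plin2, a lipid droplet gene, up and Lox, a collagen crosslinker, down. The nucleus pulposus-like cluster, where 2.91% of all genes were higher and 4.57% lower, had 1 of 26 higher (Mif 1.62, SE 0.38, adjusted p = 0.00388) and 2 lower (Plod2 −3.11, SE 0.60, adjusted p = 0.00042 and Lox −4.53, SE 0.96, adjusted p = 0.00129), and 1 of 7 in the other glycolysis list higher (Pdha1, of the pyruvate dehydrogenase complex, 1.65, SE 0.48, adjusted p = 0.0269). In the Angptl7 and Myoc cluster 2 of 26 wider hypoxia genes were higher and 7 lower than in the inner class, against 7.36% and 6.35% of all genes, led by Vegfa, the angiogenic factor (−1.38, SE 0.24, adjusted p = 5.88e-05), and Cited2 (−1.50, SE 0.30, adjusted p = 0.000342).

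The members of lowest count could be placed only roughly. Car12 had most of its 76 UMIs in the outer annulus-like class of injured 2 (45 UMIs, 16.2 CPM). Car9 in the inner class was 6.66 CPM in control 2, 1.09 in injured 1 and 1.04 in injured 2, and 0 UMIs in control 1, which allows up to 4.28 CPM. Eno2, Slc2a3 and Pfkfb4, the neuron-type enolase, a second glucose transporter and a second phosphofructokinase regulator, had 57 to 86 UMIs in all and were tested in 2 comparisons each.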

How the data were processed

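The measurements were droplet single-cell RNA sequencing (Chromium 3′ v3) of 4 libraries, thawed and sorted for viable cells, per the labels. The deposited values are UMI counts per gene and barcode, which the authors produced in Cell Ranger on mm10 and did not normalize. Per the file headers, control 1 came from version 6.0.0 and the others from version 4. Total UMIs were 1114210 to 16972879 per library. Cells needed 250 genes, and genes 5 cells, as the series text states. Cells were clustered with scanpy 1.11.5 (2000 variable genes without the members, 30 components, Leiden resolution 1) and named from 18 marker lists. A marker counted if in 25% of cells and 1.2 times the other cells' mean. No doublets were removed in the reported values. An alternative removed 1, 5, 6 and 27 cells by Scrublet score.

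Sums of at least 20 cells were tested in R 4.3.3 with edgeR 4.0.16 (default filter, TMM, two-sided quasi-likelihood test, Benjamini-Hochberg adjustment over all genes, called under 0.05), with DESeq2 1.42.0 as an alternative. A standard error is the fold change over the square root of F. Injury was fitted without a block, and contrasts of cell groups with library as a term. Rounds pair the samples by origin, and the round differences of control and injured sums correlated at 0.601 over 8016 genes. That correlation includes the control 1 cells that share barcodes with injured 1. Any other difference between rounds would also run with it, and neither part was tested. An exact two-sided permutation test of 2 against 2 libraries cannot go below 0.3333 and was not used. Only the injury test without the block was checked on simulated counts, over all cells and in the inner class. The simulated spread was fixed and the changes were larger than most reported here. The other fits were not simulated. The outer annulus-like class had too few control cells, so the Angptl7 and Myoc cluster was used in its place, chosen after the data were seen. Members and lists were chosen with earlier results of these data known. Named genes were those called in any comparison, the 2 most abundant of each role, and Hif1a, Slc2a1, Car9 and Car12, with the 2 genes of lowest p in each of 6 neighbouring lists that held calls. Others are named only to describe a level. No pathway list was tested as a set.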

Additional observations from a re-analysis of the deposited data

How the results depend on the processing

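Over all cells, calls for injury numbered 14, and 736 with the round as block, 169 with DESeq2, 378 without the filter on low counts, 3 without shared barcodes, 0 at 500 genes per cell, 30 without mitochondrial genes, 34 without doublets and 2 without the clusters of shared barcodes (added after the data were seen). Leaving out 1 library gave 126 to 273. Over disc cells the 2 calls became 428 with the block, 121 with DESeq2, 306 without the filter and 0 at 500 genes, and 0 to 190 without 1 library. In the inner class the 0 calls became 880, 116, 214 and 12, and 77 to 272. In the Angptl7 and Myoc cluster the 25 calls became 410 with the block, 77 with DESeq2 and 133 without the filter, and 20 to 166. The interaction had 11 calls, 0 without a library term, 35 without the filter, 21 at 500 genes and 9 to 42 without 1 library. For class contrasts, the nucleus pulposus-like cluster went from 521 to 281 calls and the Angptl7 and Myoc cluster from 955 to 195 without the library term. Without 1 library the counts were 313 to 583, 552 to 1002 and, for macrophage-like cells, 1275 to 2949. Outside mitochondrial UMIs, the enzyme ratio of the nucleus pulposus-like cluster was 1.19 in place of 0.823. Of 581 member values under alternatives, 520 kept direction and side of the threshold, 41 lost a call, 16 gained one and 4 reversed: Gapdh over all cells (−1.07 without injured 1 and −0.01 without control 2, in a range of −1.07 to 1.15), Ankrd37 in the inner class (0.031 without injured 1, range −3.39 to 0.031) and Slc2a1 in the nucleus pulposus-like cluster (−0.36 without control 1, range −0.36 to 1.00). The cause of these changes was not tested, apart from the fewer libraries or genes that an alternative itself sets. With clusters made from all genes, members included, Hk2 (−1.16), Gpi1 (0.87), Pfkp (−0.69), Slc2a1 (−0.95) and Epas1 lost their calls in macrophage-like cells. Without the library term, Hif1a (−2.06) and Gapdh (1.27) lost their calls in the nucleus pulposus-like contrast and Gpi1 (1.02), Pfkp (−0.77), Slc2a1 (−1.21) and Hif1a (−1.22) in the macrophage-like one. In the injury comparisons, the block changed the member calls given there. In the Angptl7 and Myoc cluster DESeq2 (Pkm) and edgeR without the filter on low counts (Pkm and Slc16a3) also changed them. Control depth limits genes such as Slc16a3, with 1 UMI in the control 1 sum of the Angptl7 and Myoc cluster.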

Other observations

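Some clusters took no name, and their members' levels are given here as values. The cluster led by mitochondrial genes had summed enzymes of 3591, 2532, 3297 and 3589 CPM in control 1, control 2, injured 1 and injured 2. The cluster led by Krt18 and Krt8, keratins of simple epithelia and of nucleus pulposus cells, had 1812 CPM in control 2, and the cluster led by Igkc 2073 CPM. The fibroblast-like genes Ccl11 and Dpep1 led a cluster with 1500.0 CPM in control 2 and 2701 CPM in injured 1. A cluster led by AY036118 and Hmgb2 reached 5138 CPM in injured 1 and 3792 CPM in injured 2.

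Endothelial-like cells of injured 1, lowest in the enzymes, held the highest sum of hypoxia targets among the groups measured in that library except the Saa1 cluster, at 836 CPM against 743 in the inner class, 590.1 in macrophage-like cells and 1083 in the Saa1 cluster. Ndrg1 gave 476 and Ddit4 139 CPM of it. With 36 cells in 1 library, this has no replicate check.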
